A study of Caenorhabditis elegans with 2 samples.

Results

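The 10 genes described here encode core proteins of chromosomal DNA replication: the replicative helicase subunits mcm-2 to mcm-7, the sliding clamp pcn-1, the ribonucleotide reductase subunit rnr-1, and the origin proteins cdc-6 and orc-2. They were chosen by name from 19973 protein-coding genes on the nuclear chromosomes, and selected on what earlier work with the same peak lists had shown, pcn-1 being known to carry a called peak. All 10 were found in the annotation. The factor profiled was ZTF-11, a Myt1 family protein with zinc fingers that acts in the formation of neurons. Chromatin came from whole Caenorhabditis elegans larvae of the stage L1, not separated by sex. It was analysed by ChIP-seq, which recovers the DNA fragments bound by a protein with an antibody. The strain OP236 carried the unc-119(ed3) mutation on chromosome III and the transgene wgIs236, which expresses ZTF-11 fused at the C-terminus to GFP and FLAG. The 2 biological replicates formed 1 group, with no untreated or mutant group to compare, and the question was where near these genes the tagged protein was recovered.

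Before S phase, the origin recognition complex and Cdc6 load the ring of 6 Mcm proteins onto DNA, where it later unwinds the double helix. PCNA, the product of pcn-1, encircles DNA and tethers the polymerases, and ribonucleotide reductase makes the deoxynucleotides they consume. In animals many of these genes are switched on together as cells enter S phase, with E2F factors among their regulators, and in worms E2F and DP proteins are also part of the DRM complex, known chiefly as a repressor. Most cells of a newly hatched larva are not dividing, while blast cells resume division once the larva feeds. In whole larvae a signal from few cells and a weak signal from many cells cannot be told apart.

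The deposited lists hold 30000 regions for the pooled reads and for each replicate, nearly all 350 bp wide, background included. The 88 regions of highest pooled signal form the thresholded list, called the consensus here. Replicate 1 also lists 23 mitochondrial regions, which were left out of ranks. Every region with its summit between 1000 bp before and 500 bp after any transcript start of a gene was assigned to that gene, and the region of highest signal was taken as its best region. The signal value is the authors' own, without a stated scale between lists, so regions are given by their signal, rank and percentile (the share of the list with lower signal) within a list. The lists have a floor: the lowest listed signal was 12.35 for the pooled reads, 7.42 for replicate 1 and 6.94 for replicate 2. A gene without a region has no value, which is not a signal of 0. Read depth was unknown.

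The sequences that carry the highest pooled signal at these genes are shown first. Each is read 5′ to 3′ on the strand of the gene from the RefSeq copy of WBcel235 (ce11) and covers 201 bp centred on the pooled summit, except that the mcm-5 stretch is 146 bp, cut where the transcript of the next gene ends. The regions are chrIV:4049586-4049786 (minus strand) for pcn-1, chrV:15059384-15059584 (minus strand) for mcm-3, chrIII:4291397-4291542 (minus strand) for mcm-5 and chrV:4346613-4346813 (plus strand) for mcm-7. Capitals mark the words searched on both strands, which are described with the promoters.
pcn-1: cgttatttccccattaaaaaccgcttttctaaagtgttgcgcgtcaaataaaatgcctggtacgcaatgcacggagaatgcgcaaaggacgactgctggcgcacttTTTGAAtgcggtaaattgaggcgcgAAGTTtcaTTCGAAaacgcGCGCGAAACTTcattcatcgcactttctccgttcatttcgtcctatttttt
mcm-3: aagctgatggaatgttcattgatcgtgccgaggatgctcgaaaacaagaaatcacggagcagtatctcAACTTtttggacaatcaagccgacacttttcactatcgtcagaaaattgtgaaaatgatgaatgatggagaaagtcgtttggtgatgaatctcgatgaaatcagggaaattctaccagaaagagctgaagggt
mcm-5: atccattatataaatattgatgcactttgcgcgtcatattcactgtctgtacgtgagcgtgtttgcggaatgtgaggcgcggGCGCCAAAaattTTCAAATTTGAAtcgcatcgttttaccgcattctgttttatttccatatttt
mcm-7: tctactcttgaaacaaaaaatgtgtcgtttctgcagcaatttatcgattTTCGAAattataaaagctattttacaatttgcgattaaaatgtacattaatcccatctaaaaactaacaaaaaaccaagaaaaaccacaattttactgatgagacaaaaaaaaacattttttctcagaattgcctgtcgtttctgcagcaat

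These 4 windows differed in base composition and in what they overlap. GC content over 201 bp was 44.8% at pcn-1, 40.8% at mcm-3, 37.8% at mcm-5 and 28.9% at mcm-7, against a median of 32.3% over the same windows at the 1000 highest pooled summits. The summit at mcm-3 is in a coding exon of the gene, and those of the other 3 are upstream, outside any protein-coding gene. None of the 320 words of 31 bases in each of the 350 bp regions at pcn-1, mcm-3, mcm-4, mcm-5 and mcm-7 occurred elsewhere in the genome.

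The sliding clamp gene pcn-1 stood first among the 10 genes in every list. The gene (WBGene00003955) lies on the minus strand of chromosome IV from 4047937 to 4049448 and has 1 annotated transcript start. Its pooled region, at 4049511 to 4049860, had a signal of 54.6, which is 3.40 times the list median, and ranked 29 of 30000. In replicate 1 the region had a signal of 25.45 and ranked 75, and in replicate 2 it had 27.7 and ranked 46. Both replicates thus placed it near the top of their lists. The summits lay 238 bp, 248 bp and 240 bp upstream of the start in the pooled, replicate 1 and replicate 2 lists, so the replicate summits were 8 bp apart. The next protein-coding gene upstream, wrt-5, lies on the same strand across a gap of 557 bp. The region fell in the window of no other protein-coding gene, and non-coding genes were not searched. Within 20 kb of the summit pcn-1 had the region of highest signal in all 3 lists, at 2.36 times the next one in the pooled list, 1.72 times in replicate 1 and 1.53 times in replicate 2.

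By its best pooled region pcn-1 ranked 21 among the 9018 protein-coding genes with one. It was 1 of 16 genes, or 0.0801% of all, whose best region was among the 100 highest of the pooled list and of both replicates. By the percentiles in these 3 lists, the genes most like it among 4391 with a region in every list were ddp-1, which encodes a mitochondrial import protein, and ttc-7, which share 1 region on chromosome III (distance 0.130 percentile points for both), then the Argonaute gene alg-5 (0.151). The shared region of ddp-1 and ttc-7 had a pooled signal of 53.9 and ranked 31 among pooled regions, 38 in replicate 1 and 58 in replicate 2. That of alg-5 had a pooled signal of 64.8 and ranked 21, 43 and 15. The pooled summits lay at -202 bp from the start of ddp-1, -743 bp from that of ttc-7 and -780 bp from that of alg-5 (below 0 is upstream). Likeness over 3 values of 2 libraries says only that these regions rank alike.

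**Figure D1:**
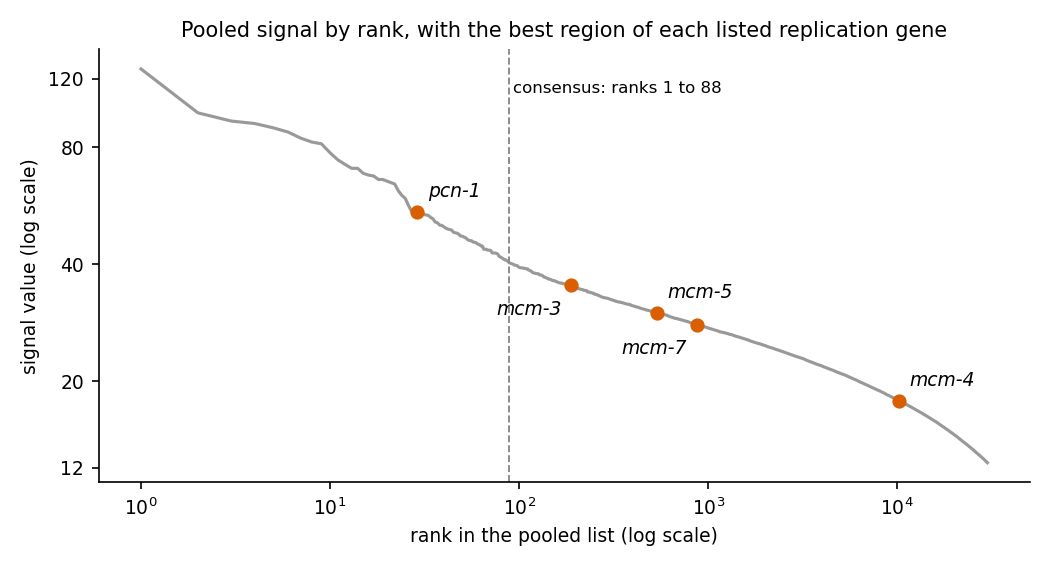
Signal value of all 30000 pooled regions (y axis, log scale) against their rank (x axis, log scale), with the best region of each replication gene that has one marked in orange and the limit of the 88 consensus peaks as a dashed line. The pcn-1 region, at rank 29, is inside the consensus, and those of mcm-3, mcm-5, mcm-7 and mcm-4 follow at ranks 188, 534, 869 and 10253.

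Among the 6 helicase subunit genes, mcm-3, mcm-5 and mcm-7 had regions among the 1000 highest of the pooled list, mcm-4 had a region of middle rank, and mcm-2 and mcm-6 had none there. The 6 Mcm proteins form 1 ring with 1 copy of each, and their genes lie on chromosomes I, II, III and V.

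The gene of this family with the highest pooled signal was mcm-3 (WBGene00003155, chromosome V 15056719 to 15059599, minus strand). Its region had a signal of 35.3 in the pooled list, rank 188, and 19.8 in replicate 1, rank 445. In replicate 2 it had a signal of 8.87 and ranked 16516, at the 44.9 percentile, below that list's median. The replicates therefore placed this region very differently, although their summits were 47 bp apart. The pooled summit lay 115 bp downstream of the start, in a coding exon, and also 324 bp upstream of C25D7.15 on the opposite strand. It was the highest of the 16 pooled regions within 20 kb, 1.28 times the next, but had order 2 in replicate 1 and 9 in replicate 2.

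At mcm-5 and mcm-7 both replicates gave regions of similar, moderate rank. For mcm-5 (WBGene00003157, chromosome III 4288264 to 4291266, minus strand) the signal was 29.97 in the pooled list, rank 534, 15.2 in replicate 1, rank 2391, and 13.8 in replicate 2, rank 2716. The summits lay 231 bp, 229 bp and 279 bp upstream of the start. The gap to the next gene, nth-1, which encodes a DNA repair glycosylase and lies on the same strand, is 276 bp, so the replicate 2 summit fell in the last exon of nth-1 outside its coding sequence. A weaker pooled region with a signal of 12.6, rank 28845, lay 753 bp upstream in a coding exon of nth-1.

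For mcm-7 (WBGene00003159, chromosome V 4347166 to 4349768, plus strand) the signal was 27.9 in the pooled list, rank 869, 15.3 in replicate 1, rank 2342, and 13.8 in replicate 2, rank 2745. The summits lay 453 bp upstream in the pooled list and in replicate 1 and 366 bp upstream in replicate 2. The gene shares this intergenic stretch of 740 bp with hpo-18 on the opposite strand, whose start was 288 bp from the pooled summit and thus closer than that of mcm-7. The region also fell in the window of figl-1, 714 bp from its start. The position alone does not assign the region to 1 of these 3 genes. A further pooled region, with a signal of 24.6 and rank 2028, lay just outside the window, 1240 bp upstream of mcm-7.

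At mcm-4 (WBGene00003156, chromosome I 2318291 to 2321817, minus strand) a region was listed for the pooled reads and for replicate 2 but not for replicate 1. The signal was 17.8 in the pooled list, rank 10253, and 14.2 in replicate 2, rank 2294. Both summits lay 5 bp upstream of the outer transcript start, the closest to a start among these genes, and 483 bp downstream of the start of Y39G10AR.32.

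The remaining helicase genes had little or nothing listed. For mcm-2 (WBGene00003154, chromosome II 12001509 to 12006625) the only region was in replicate 2, 285 bp upstream, with a signal of 8.84 and rank 16693. For mcm-6 (WBGene00003158, chromosome III 9794367 to 9798644) no list had a region in the window, although its 2 transcript starts gave it a window of 3002 bp against a median of 1501 bp over all genes. The nearest pooled summit to mcm-6 lay 1968 bp upstream with a signal of 15.9, rank 15633.

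The origin genes had only low-ranking regions, and the nucleotide synthesis gene had none. For cdc-6 (WBGene00000382, chromosome I 4268070 to 4270287, minus strand) replicate 1 had a region with a signal of 7.94, rank 26108, 368 bp upstream, and replicate 2 one with a signal of 8.74, rank 17141, 731 bp upstream. These summits were 363 bp apart, more than the 350 bp width of a region, and both also lay near the start of acin-1 on the opposite strand. For orc-2 (WBGene00003882, chromosome II 10873931 to 10877683, plus strand) replicate 1 had a pair of regions, 396 bp downstream with a signal of 7.79 (rank 27160) and 829 bp upstream with 7.72 (rank 27648). The second of these also fell in the windows of copz-1, which encodes a coatomer subunit, and of the cyclophilin gene cyn-4. Replicate 2 and the pooled list had none in that window. A pooled region with a signal of 19.5 and rank 7042 lay just outside it, 1107 bp upstream. For rnr-1 (WBGene00004391, chromosome III 9225339 to 9228798, minus strand) no list had a region in the window, and the nearest pooled summit, 2188 bp upstream, had a signal of 12.4 and rank 29934, close to the floor of the list.

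**Figure D2:**
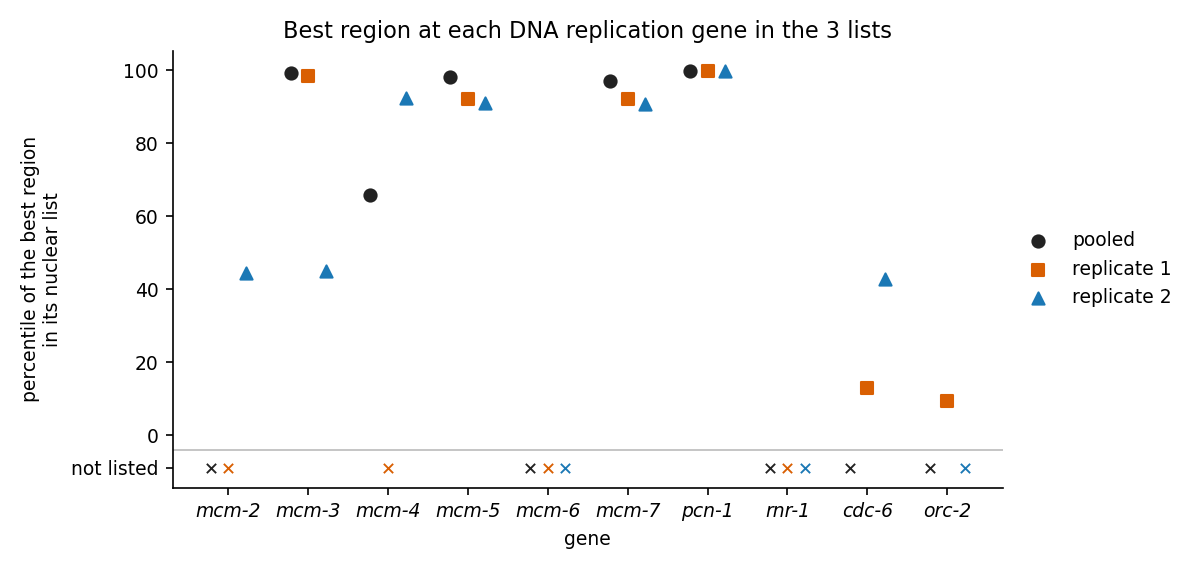
Percentile of the best region within its nuclear list (y axis) for each gene (x axis) in the pooled list (circles), replicate 1 (squares) and replicate 2 (triangles), with crosses where no region was listed. The 3 symbols sit together near the top for pcn-1, mcm-5 and mcm-7, while the replicate 2 symbol of mcm-3 is at 44.9 and its replicate 1 symbol at 98.5.

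The counts over the 10 genes are set beside those over all protein-coding genes, without a test, since the genes were chosen with these lists known. A region in the pooled list was present at 5 of the 10 genes, mcm-3, mcm-4, mcm-5, mcm-7 and pcn-1, against 45.2% of all genes. In replicate 1 it was 6 of 10 against 44.8%, and in replicate 2 it was 7 of 10 against 45.7%. These shares were near the background and say nothing particular about the 10 genes. A consensus peak was present at 1 of the 10, pcn-1, against 0.411% of all genes.

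Among the 1000 highest pooled regions the 10 genes had 4, at mcm-3, mcm-5, mcm-7 and pcn-1, against 2.9% of all genes. The same count was 2 in replicate 1, mcm-3 and pcn-1, against 2.48%, and 1 in replicate 2, pcn-1, against 2.73%. The pooled count is thus larger than that of either replicate alone. With the 5000 highest regions it was 4 of 10 in replicate 1, against 9.72%, and 4 of 10 in replicate 2, against 10.6%. Those found in both replicates were mcm-5, mcm-7 and pcn-1, or 3 of 10 against 2.4% of all genes.

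Summits of the replicates lay close together at 4 of the 10 genes, mcm-3, mcm-5, mcm-7 and pcn-1, where the nearest pair was within 200 bp, against 13.4% of all genes. This gap was 8 bp at pcn-1, 47 bp at mcm-3, 50 bp at mcm-5, 87 bp at mcm-7 and 363 bp at cdc-6, the fifth gene with a region in both replicates. Its median over these 5 genes was 50 bp, and over the 5043 of 19973 genes with regions in both replicates it was 176 bp. These sets were not matched for rank: 4 of the 5 genes had one of the 1000 highest pooled regions. Of the 4 best pooled summits among the 1000 highest, 3 were upstream of the start. Over the 579 genes with such a region, 83.8% were upstream, with a median position 261 bp upstream and quartiles of 523 bp and 85 bp upstream.

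**Figure D3:**
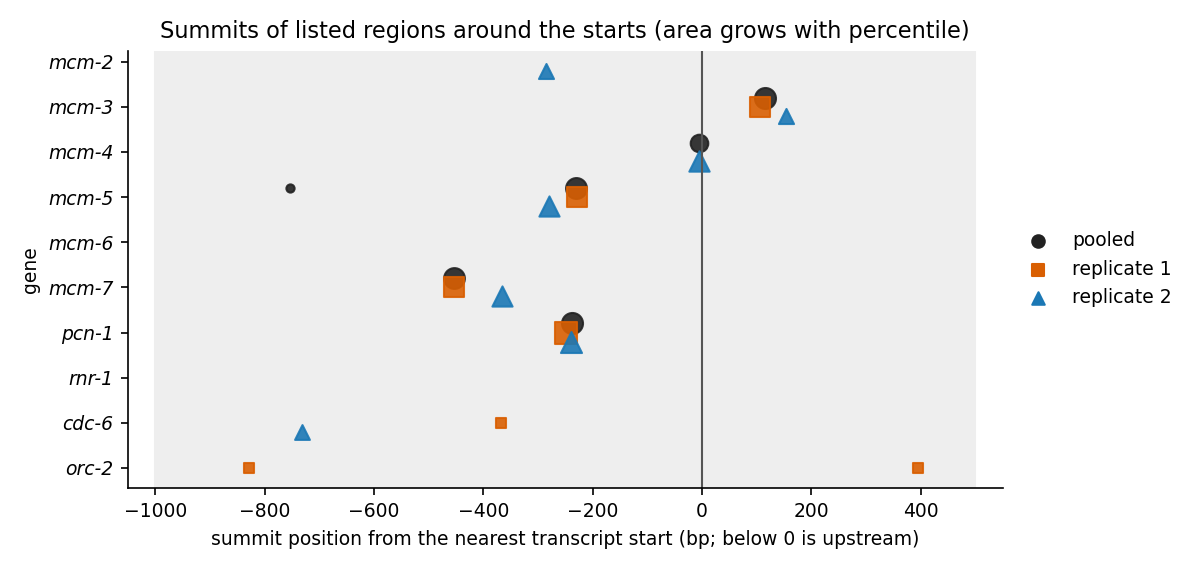
Position of every listed summit from the nearest transcript start of each gene in bp (x axis, below 0 upstream), by gene (y axis), for the pooled list (circles), replicate 1 (squares) and replicate 2 (triangles), with larger symbols for higher percentiles and the window in grey. The pcn-1 summits are 238 bp to 248 bp upstream, the mcm-3 summits are 106 bp to 153 bp downstream, and mcm-6 and rnr-1 have none.

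Other genes of the replication machinery had regions of high rank at shares that differed between the lists. Of 62 gene names in a wider list of origin, helicase, polymerase, clamp loader, nucleotide and chromatin assembly genes, 55 were found in the annotation. The 7 names not found, and so left out, were orc-6, dbf-4, cdc-45, sld-3, pold-1, pold-2 and rfc-5. Of the 55 found, 45 were not among the 10. Of these 45, 26 had a region in the pooled list, or 57.8% against 45.2% of all genes. A consensus peak was present at 0 of the 45, against 0.411%. Among the 1000 highest regions they had 3 in the pooled list, or 6.67% against 2.9%, 0 in replicate 1, against 2.48%, and 4 in replicate 2, or 8.89% against 2.73%. Those in replicate 2 were clsp-1, rfc-4, psf-1 and tipn-1, the last 2 named after their values were seen. The 3 genes of the pooled list were clsp-1, which encodes the checkpoint adaptor Claspin, and rfc-1 and rfc-4, subunits of the clamp loader that places PCNA on DNA. The best region of clsp-1 had a signal of 39.2 in the pooled list, 14.3 in replicate 1, rank 3349, and 23.1 in replicate 2, rank 89. The best region of rfc-4 had 28.3, rank 813, 12.7, rank 5924, and 17.1, rank 724, in the same order. The rfc-1 region had 28.6, rank 761, in the pooled list, no region in replicate 1 and 8.30, rank 19772, in replicate 2.

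Each of these 3 pooled regions lay between a divergent pair of genes. At clsp-1 the pooled summit was 160 bp upstream of clsp-1 and 105 bp upstream of eef-2, which encodes translation elongation factor 2. At rfc-4 it was 262 bp upstream of rfc-4 and 279 bp upstream of eef-1A.1, which encodes translation elongation factor 1 alpha. At rfc-1 it was 95 bp upstream, with pmp-3 starting 665 bp away on the opposite strand. The part of the neighbouring gene in each signal was not tested.

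Genes that control S-phase entry and the checkpoints had pooled regions of high rank at about the share of all genes. Of 33 cyclin, kinase, E2F and checkpoint genes, 17 had a region in the pooled list, or 51.5% against 45.2% of all genes, and 0 had a consensus peak, against 0.411%. Among the 1000 highest regions they had 1 in the pooled list, or 3.03% against 2.9%, and 2 in each replicate, or 6.06% against 2.48% in replicate 1 and 2.73% in replicate 2. The 2 genes were atm-1 and wee-1.1 in replicate 1 and cyd-1 and efl-1 in replicate 2, so no gene was among the highest of both. Apart from atm-1 these were named after their values were seen. The gene in the pooled count was atm-1, which encodes a DNA damage checkpoint kinase, with a signal of 33.5, rank 255, in the pooled list, 23.8, rank 120, in replicate 1 and 11.2, rank 7360, in replicate 2. Its summit lay 537 bp upstream of atm-1 but 55 bp upstream of F56C11.3. For comparison, 16 of 78 cytosolic ribosomal protein genes, or 20.5% against 2.9% of all genes, had one of the 1000 highest pooled regions, and 7, or 8.97% against 0.411%, had a consensus peak. The difference between this family and the 10 replication genes was not tested.

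**Figure D4:**
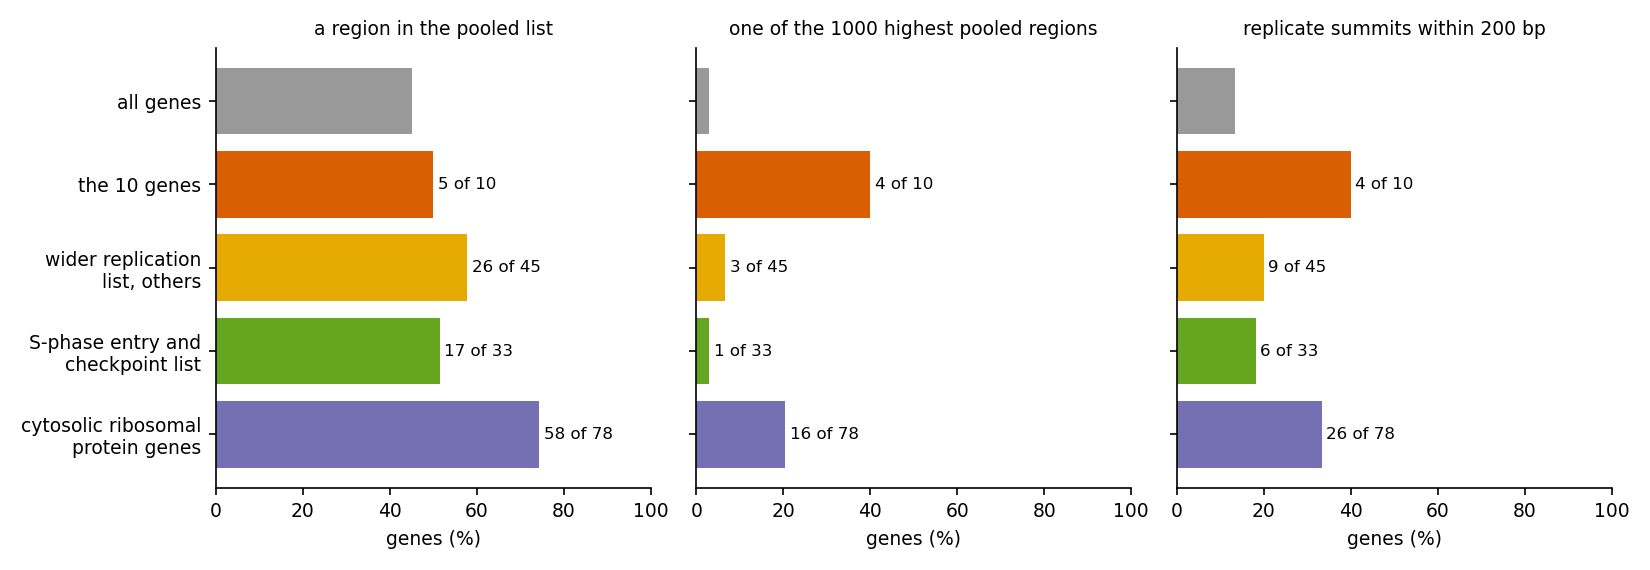
Percentage of genes (x axis) with a region in the pooled list, with one of the 1000 highest pooled regions, and with replicate summits within 200 bp, for all protein-coding genes (grey), the 10 genes, the other 45 genes of the wider replication list, 33 S-phase entry and checkpoint genes, and 78 cytosolic ribosomal protein genes. For the 1000 highest regions the bars stand at 2.9% for all genes, 40% for the 10 genes, 6.67% for the wider list and 20.5% for ribosomal protein genes.

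A feature of the 10 promoters that the peak lists did not define is the E2F word. The genes and words were chosen with earlier results known, and E2F factors are among the known regulators of such genes. The counts are therefore a description of the genes chosen. Promoters were taken as 300 bp, 250 bp before to 50 bp after the outermost start. The words TTTCGCGC, TTTGGCGC, TTTCCCGC and TTTGCCGC, forms of the E2F motif, were searched on both strands. At least 1 E2F word was present in 7 of the 10 promoters, those of mcm-3, mcm-4, mcm-5, mcm-6, mcm-7, pcn-1 and rnr-1, and in 4.69% of all 19973 promoters. It was absent from those of mcm-2, cdc-6 and orc-2. In the rest of the wider replication list 18 of 45 promoters held one, or 40%, in the S-phase entry and checkpoint list 7 of 33, or 21.2%, and among ribosomal protein genes 4 of 78, or 5.13%.

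The words of 6 of these promoters are shown because E2F words were in most of the 10 promoters and in few of all promoters. Each is printed in capitals with 10 bases on either side, read so that the word runs 5′ to 3′ from its TTT. The stretches are chrV:15059726-15059753 (plus strand) for mcm-3, chrIII:4291443-4291470 (plus) for mcm-5, chrIII:9794110-9794137 and chrIII:9794237-9794264 (plus) for mcm-6, chrV:4347008-4347035 (minus) for mcm-7, chrIV:4049619-4049646 (plus) for pcn-1 and chrIII:9228879-9228906 (plus) for rnr-1.
mcm-3: aacagcaaggTTTCGCGCgctcgctccg
mcm-5: tttgaaaattTTTGGCGCccgcgcctca
mcm-6 upstream word: gccgcacagtTTTCGCGCctaatttgtc
mcm-6 word nearer the start: ttctcgtcgtTTTCCCGCattctcattg
mcm-7: tccgttcgaaTTTCGCGCgtttgcctcc
pcn-1: atgaatgaagTTTCGCGCgcgttttcga
rnr-1: aaaacacaatTTTGCCGCgggttactgt

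The form TTTCGCGC was the most frequent, in 5 of the 10 promoters against 1.14% of all. Measured to the end of the word farther from the gene, the words lay 98 bp to 247 bp upstream of the start. Their distance from the pooled summit varied: the centre of the word was 40 bp from the summit at mcm-5, 53 bp at pcn-1, 122 bp at mcm-4, 255 bp at mcm-3 and 308 bp at mcm-7. Promoters of mcm-6 and rnr-1 held E2F words while no list had a region there. Of the 201 bp windows at the 1000 highest pooled summits, 39, or 3.9%, held any E2F word. These windows are shorter than the 300 bp promoters, so this share is not comparable with that over promoters. A word is a match of letters, not a site of binding.

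Over all genes, the shares with a region are given for promoters with and without an E2F word. A region in the pooled list was present at 457 of 936 genes with a word, or 48.8%, and at 8561 of the 19037 without, or 45%. One of the 1000 highest pooled regions was present at 48 of the 936, or 5.13%, and at 2.79% of the others. A consensus peak was present at 7 of the 936, or 0.748%, and at 0.394% of the others. These shares are descriptions and were not tested.

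Of the other words, AAGTT and TTTGAA were common everywhere, and TTCGAA was less common. AAGTT, known as the core of Myt1 family motifs, was present in 7 of the 10 promoters and in 69.1% of all. It occurred within 100 bp of the pooled summit at pcn-1, on both strands, and at mcm-3, on 1 strand, and in 58.0% of the same windows at the 1000 highest pooled summits. These windows are 201 bp long and the promoters 300 bp, so the shares of windows and promoters are not comparable. In the pcn-1 promoter 1 AAGTT overlapped the E2F word by 2 bases. TTTGAA or TTCGAA, forms of the cell cycle homology region, were present in all 10 promoters and in 68.9% of all promoters. Taken singly, TTTGAA was in 9 of the 10 and in 62.5% of all, and TTCGAA in 3 of the 10 and in 18.2% of all.

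**Figure D5:**
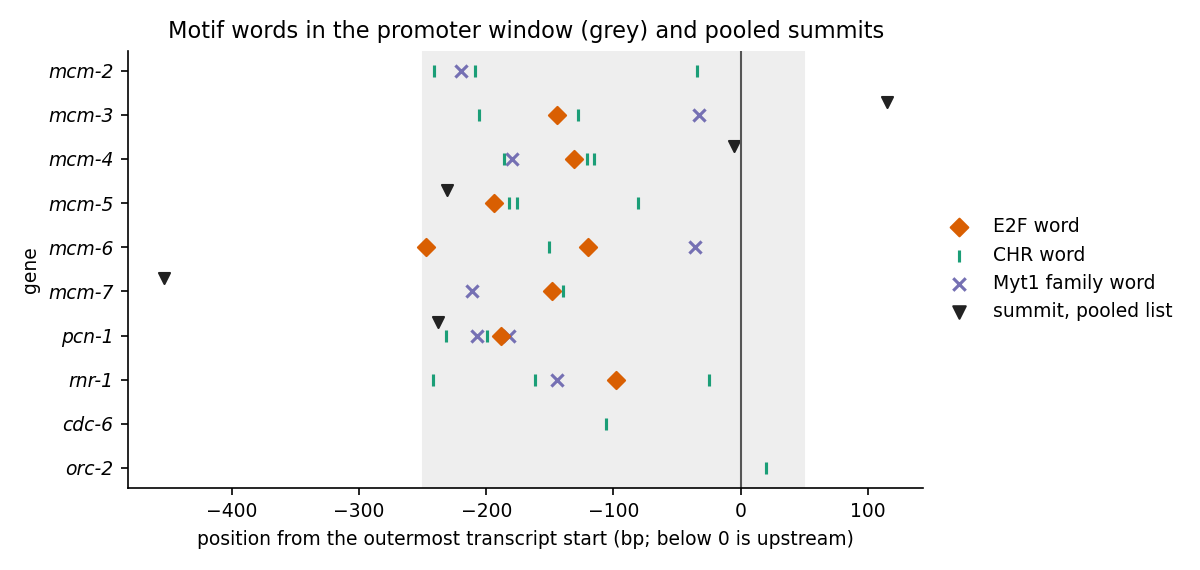
Position in bp from the outermost transcript start (x axis, below 0 upstream) of E2F words (diamonds), cell cycle homology region words, labelled CHR (bars), and the Myt1 family word (crosses) within the 300 bp promoter window (grey), by gene (y axis), with the pooled summit as a triangle. The summit is 53 bp from the centre of the E2F word at pcn-1, 40 bp at mcm-5, 122 bp at mcm-4, 255 bp at mcm-3 and 308 bp at mcm-7.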

How the data were processed

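The data were ChIP-seq region lists from 2 biological replicates of 1 group. Per the deposited README texts, the authors made each list of 30000 regions from aligned reads and a control, for use in the irreproducible discovery rate procedure, whose thresholded output is the consensus. The signal of each region is the authors' value as deposited in the narrowPeak files. A further deposited column, treated as a score, was below 0 for 80.0% of pooled regions and was used in no result. The lists were used as they stand, with aligner, peak caller and threshold not given in the sources used here. These files give no read counts, so depth and counting error are unknown.

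The ce11 lists were joined to the Ensembl release 115 annotation of WBcel235 with Python 3.11.15 and pandas 2.3.3. No region ran past a chromosome end. Coordinates count from 1, and sequences are from the RefSeq copy of WBcel235. The ce10 lists were not used. Of the deposited columns, 0 with values of single samples were left unmapped. The rule that places regions was tested on simulated data. The members, lists and words were chosen with earlier results of these data known. Named genes were the 10 members, genes whose window holds a member's region, genes of the wider lists with a consensus peak or one of the 1000 highest pooled regions, and the 3 genes nearest to pcn-1 by percentiles in 3 lists. No test was run, because 1 group of peak lists allows no contrast and the genes were chosen on these values. Alternatives were other windows, the outermost start alone, other numbers of regions, other matching distances, and each replicate list in place of the pooled one.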

Additional observations from a re-analysis of the deposited data

How the results depend on the processing

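Of 42 alternatives for the counts and the median percentile, 33 stayed close to the main value. Close means within 1.5 times it for a count and within 0.888 percentile points for the median. The limit for the median is the SD of only 2 values, the medians in replicate 1 (6 genes) and replicate 2 (7 genes). These are also its values without a replicate, and the limit does not measure the spread between replicates at single genes. Within that tolerance the count of the 10 genes with a pooled region, 5, ranged from 5 to 7. For the wider list of 55 genes, which includes the 10, this count was 31, or 56.4% against 45.2% of all genes. It ranged from 26 to 40. Other windows and starts left the best pooled signal as it was in 15 of 15 cases. The count of the 10 genes among the highest pooled regions, 4 at 1000 regions, was 2 at 500 regions and 1 to 2 without a replicate (2 without replicate 2, mcm-3 and pcn-1, and 1 without replicate 1, pcn-1). For the wider list of 55 genes the count was 7, or 12.7% against 2.9% of all genes, and 4 of these 7 were among the 10. It was 3 at 500 regions, 14 at 5000 regions and 2 to 5 without a replicate. The 2 without replicate 2 were mcm-3 and pcn-1, both among the 10. Shares over all genes are not given for other windows or other numbers of pooled regions. Whether the counts at these settings follow the background was not tested. The median percentile of the 5 genes with a pooled region was 98.2, against 59.1 over all 9018 protein-coding genes with one. The other 5 genes have no value and do not enter it. This median was 97.1 with a window reaching 2000 bp upstream. It was 92.1 over 6 genes without replicate 2, against 57.2 over all genes with a region, and 90.9 over 7 genes without replicate 1, against 59.05. Fewer or more regions follow from the number taken. For the other changes the cause was not tested. Keeping 1 summit per 200 bp, an alternative chosen after the data were seen, gave the same counts. The consensus count was 1 under all 5 alternatives run for it. Without replicate 1 the mcm-3 region ranked 16516, and without replicate 2 mcm-4 had no region. No paired analysis was possible because the design has a single group. Depth sets no stated limit, as read counts were not part of the lists.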
